A study of Rattus norvegicus with 3 samples.

Results

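The genes described here encode the subunits of oxidative phosphorylation, sorted by the complex they belong to, on 3 expression arrays of rat brainstem. Members were chosen by symbol in the platform's probe table: every gene named Nduf (assembly factors named Ndufaf left out), Uqcr, Cox4 to Cox8 or Atp5, and Sdha to Sdhd. The rule took 80 of 14217 genes that had a probe set with a single symbol. Of these 80, 36 belong to complex I, 4 to complex II, 7 to complex III, 17 to complex IV and 16 to complex V. By the same rule Ndufa4, which is named for complex I but is found with complex IV, is counted in complex I. Atp5if1, the inhibitor of ATP synthase, is counted in complex V, and Cox7a2l, which joins complexes III and IV into supercomplexes, in complex IV.

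The 3 arrays came from rats labelled Sham, TBI (traumatic brain injury) and Hand Acu (hand acupuncture), 1 array a group, all with brainstem taken 1 h after modelling. The design text says that brainstem of 5 rats was mixed before extraction, read here as 1 pool a group, and 6 µg of total RNA was labelled. The labels give no strain, sex or age, do not say how the injury was made or where needles were placed, and leave unsaid whether the acupuncture rats were injured too. With 1 array a group no difference has an error of its own and no test was run, so differences are between 3 pools of RNA, and precision is limited by having 3 arrays. The comparisons are TBI minus sham, hand acupuncture minus TBI, and hand acupuncture minus sham; each pair of them shares an array, so their values are set side by side and not counted as separate evidence.

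Oxidative phosphorylation takes place in the inner mitochondrial membrane. Complex I takes electrons from NADH and complex II from succinate, both pass them through ubiquinone to complex III, cytochrome c carries them to complex IV, which reduces oxygen, and complex V makes ATP from the proton gradient that complexes I, III and IV build up. Most subunits are encoded in the nucleus, as are all genes described here. Neurons depend heavily on this pathway for the ATP that ion pumps use. In bulk tissue, fewer cells of a type and less RNA per cell cannot be told apart.

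Values are log2 signals, and where a gene is given 3 of them they are in the order sham, TBI, hand acupuncture. A gene is represented by the probe set with the highest mean over the 3 arrays, and is described further where that mean is at least 7.44, the median of all non-control probe sets and called the floor below. Of the 80 members, 73 were above this floor, 35 in complex I, 4 in complex II, 7 in complex III, 11 in complex IV and 16 in complex V, as were 9241 of all genes. The floor was applied to the mean of all 3 arrays, so a gene above it can read below it on 1 or 2 of them. Below it lay Ndufa4l2, Cox6c-ps1 (a pseudogene) and 5 isoform genes of complex IV, described with that complex. Nearest to the floor were Cox6c-ps1, with a mean of 7.25, and Cox7a1, with 7.70. Cox7a1 was above the floor on each array, at 7.55, 7.89 and 7.67. The 3 arrays had median signals of 174.1 to 174.7 on the linear scale and 3' over 5' ratios for beta-actin, which grow as RNA breaks down, of 5.58 (sham), 6.37 (TBI) and 6.69 (hand acupuncture). The same ratios for GAPDH were 1.25, 1.203 and 1.28, lowest on the TBI array. Of 5 brainstem genes with a probe set (Hoxa5, Hoxb4, Slc6a5, Chat and Dbh), Hoxa5 and Chat were above the floor, and both were higher on the TBI than on the sham array, by 1.22 and 0.25. On the sham array itself Hoxa5 read 7.35, so its difference starts from a value below the floor. All 8 neuron markers and all 6 oligodendrocyte markers were above it.

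Subunit genes were slightly higher on the TBI array than on the sham array. Of 73 members 58 were higher (79.5%), where 51.0% of all 9241 genes were (15 were lower, where 49.0% of all genes were), and the median log2 difference was 0.066 against 0.004 for all genes; under quantile normalization 47 were higher and the median was 0.014. The middle 50% of members lay between 0.015 and 0.10, and that of all genes between −0.11 and 0.11. At least 1.2-fold higher were 2 members, Cox5a and Cox7a1, both of complex IV, where 7.68% of all genes passed that fold. No member was 1.2-fold lower, where 8.15% of all genes were, and none was 1.5-fold apart in either direction, where 0.866% of genes were higher and 0.682% lower. Differences were therefore small and mostly of 1 sign. The fold shares of all genes, here and below, come from genes of weaker signal, with a median of 9.52 against 12.37 for the members. Differences also spread less at high signal. For the other genes their standard deviation was 0.16 from 10 to 11 and 0.094 at 13 or above. These shares are therefore not those of genes as strong as the members. At 12 or above 68.0% of 594 other genes were higher by any amount, beside 43 of 52 members (82.7%).

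On the hand acupuncture array most subunit genes were a little lower than on the TBI array, as were most other genes of strong signal. At 12 or above 35.7% of the 594 other genes were higher (median −0.024), beside 12 of 52 members (23.1%, median −0.027). Of 73 members 52 were lower (50.7% of all genes were) and 21 higher (49.3% of all genes were), and the median difference was −0.025; under quantile normalization 36 were higher and 37 were not. Ndufs4 was the 1 member at least 1.2-fold higher (6.38% of all genes were), and no member was 1.2-fold lower (6.49% of all genes). None was 1.5-fold apart, where 0.617% of genes were higher and 0.595% lower. Against the sham array, 47 of 73 were higher on the hand acupuncture array (64.4%, against 51.0% of all genes). Lower were 26 (49.0% of all genes). The median was 0.027, and under quantile normalization 42 were higher. At 12 or above 58.1% of the 594 other genes were higher, beside 37 of 52 members (71.2%). Cox5a, Ndufs4 and Atp5mpl were at least 1.2-fold higher (8.16% of all genes were), no member was 1.2-fold lower (8.39%) and none 1.5-fold apart, where 0.996% of genes were higher and 0.898% lower.

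**Figure D1:**
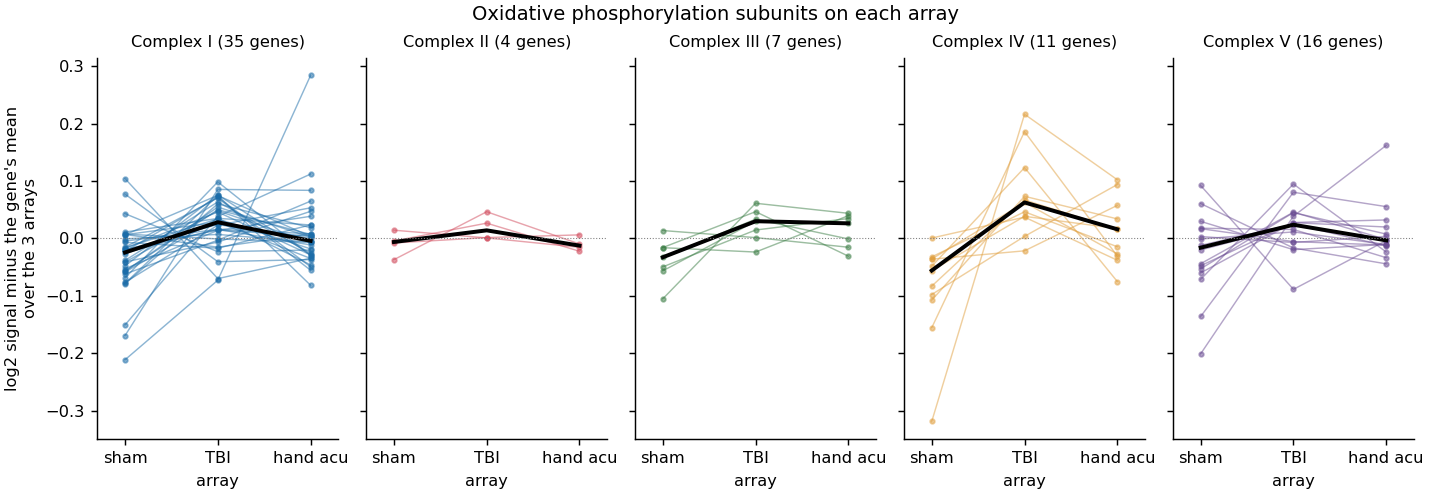
Log2 signal of each of the 73 subunit genes above the floor on each of the 3 arrays (sham, TBI, hand acupuncture), minus that gene's own mean over the 3 arrays, in 1 panel a complex (thin lines: genes; thick line: median). Complex IV has the lowest median on the sham array, and Cox5a is the lowest single point there; the highest point on the hand acupuncture array is Ndufs4 of complex I.

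The counts of members higher on the TBI array are given by complex, beside 51.0% of all genes. Of the 594 other genes with a mean log2 signal of at least 12, 68.0% were higher, and of the 145 at 13 or above 83.4%. Under quantile normalization 49.1% of 593 other genes at 12 or above were. Without that scaling, the counts of complexes II, III and V were near the 68.0% and are not read as differences between complexes. Complex IV had 11 of 11 higher, with a median log2 difference of 0.10, and 8 of 11 with a median of 0.030 under quantile normalization. Complex I had 29 of 35 higher (median 0.064, and 25 of 35 with 0.020 under quantile normalization) and complex III 5 of 7 (median 0.064, and 5 of 7 with 0.014). Complex V had 10 of 16 higher (median 0.040) and turned under quantile normalization to 7 of 16 with a median of −0.020. Complex II, the smallest, had 3 of 4 higher (median 0.020) and 2 of 4 under quantile normalization, with a median of −0.004. The order of these medians has no error and was not tested.

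For hand acupuncture minus TBI 50.7% of all genes were lower, and 35.7% of the 594 other genes at 12 or above were higher. The median was −0.061 for complex IV, with 9 of 11 lower, and −0.025 for complex I, with 24 of 35 lower. For complex II it was −0.033, with 3 of 4 lower. It was −0.017 for complex III, with 5 of 7 lower, and −0.023 for complex V, with 11 of 16 lower; under quantile normalization complex III had 5 of 7 higher (median 0.019) and complex V 10 of 16 higher (median 0.011). The same scaling brought complex I to 16 of 35 higher with a median of −0.001, complex IV to 4 of 11 with −0.037 and complex II to 1 of 4 with −0.023. For hand acupuncture minus sham 51.0% of all genes were higher, and 58.1% of the 594 other genes at 12 or above. Complex IV had 9 of 11 higher (median 0.094), complex III 5 of 7 (0.056) and complex I 22 of 35 (0.023). Complex V had 9 of 16 (0.009) and complex II 2 of 4 (−0.002). Under quantile normalization complex V turned to 7 of 16 with a median of −0.010. Complex I then had 20 of 35 higher (median 0.002), complex III 5 of 7 (0.018), complex IV 8 of 11 (0.064) and complex II 2 of 4 (−0.014). For complex II the sign of this median also turned when arrays were centred on the median of probe sets (0.002) and with other choices of probe set (0.021).

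**Figure D2:**
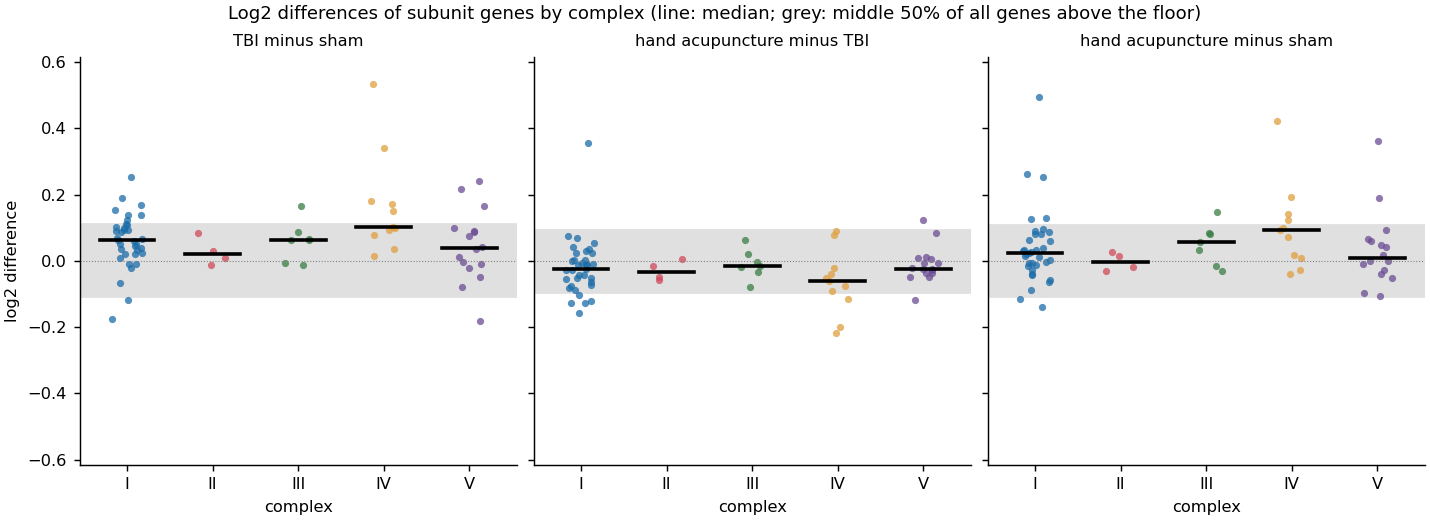
Log2 difference of each subunit gene above the floor (points) by complex, for the 3 comparisons; black lines are medians and the grey band is the middle 50% of all 9241 genes above the floor. All 11 complex IV genes lie above 0 for TBI minus sham (8 of 11 under quantile normalization), while the 16 complex V genes lie on both sides.

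Signal strength moved with these differences. Of the 73 members, 52 (71.2%) had a mean log2 signal of at least 12, against 6.99% of all genes above the floor, and the strong probe sets of the array were as a whole higher on the TBI array. Of the 594 other genes at 12 or above, 68.0% were higher for TBI minus sham, with a median of 0.046, beside 43 of 52 members (82.7%) with a median of 0.064. In the band from 12 to 13 the median was 0.049 for 36 members and 0.036 for 449 other genes, and at 13 and above it was 0.094 for 16 members and 0.069 for 145 others. From 11 to 12 it was 0.050 for 15 members and 0.015 for 982 others, and from 10 to 11 it was 0.069 for 3 members and 0.006 for 1832 others. In these 4 bands the members' median was above that of the other genes by 0.012 to 0.063, with no error for either median. For hand acupuncture minus TBI the median at 12 or above was −0.027 for members and −0.024 for the others, and for hand acupuncture minus sham 0.029 and 0.021. Under quantile normalization 49.1% of 593 other genes at 12 or above were higher for TBI minus sham, with a median of −0.001, beside 33 of 52 members at 12 or above (63.5%) with a median of 0.013. The bands were set after the data had been seen. The part of this signal dependence in the members' shift was not tested beyond these values.

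By complex, at a mean of 12 or above, complex IV had 9 of 9 members higher for TBI minus sham, with a median of 0.099, and complex I 17 of 18, with 0.061. Complex III had 5 of 7 (0.064), complex II 3 of 4 (0.020) and complex V 9 of 14 (0.040), so the medians of complexes II and V were below the 0.046 of the 594 other genes of this strength. Under quantile normalization complex IV had 6 of 9 higher at this strength (median 0.012), complex I 14 of 18 (0.016), complex III 5 of 7 (0.014), complex II 2 of 4 (−0.004) and complex V 6 of 14 (−0.020).

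**Figure D3:**
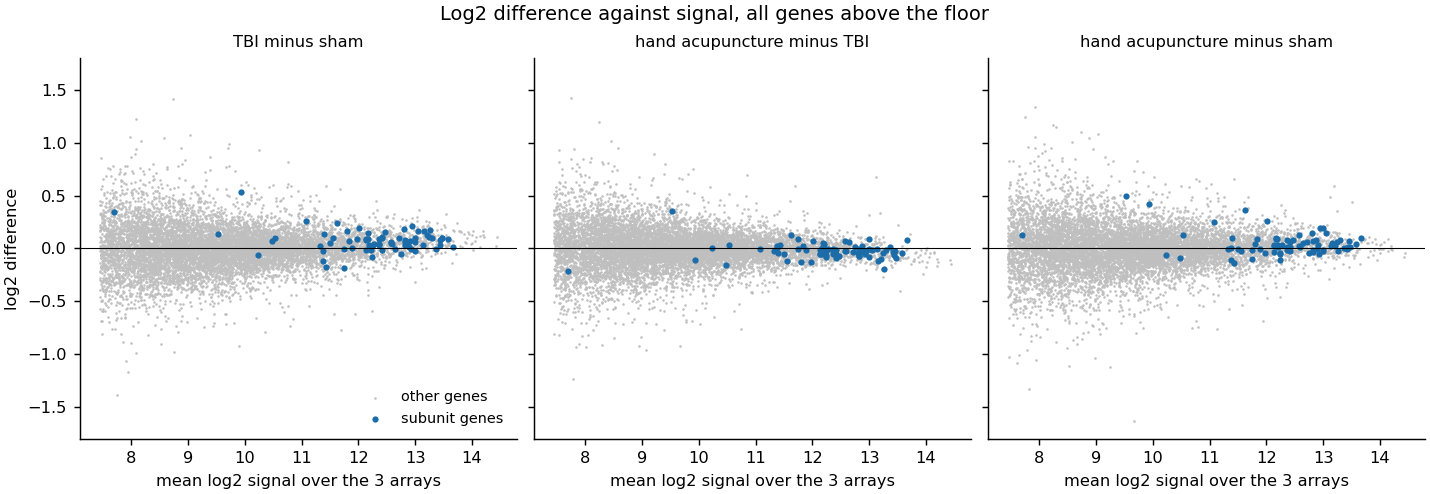
Log2 difference against mean log2 signal over the 3 arrays for all genes above the floor (grey) and the 73 subunit genes (blue), for the 3 comparisons. The spread narrows as signal grows, and most subunit genes lie at 12 or above, where the grey cloud itself sits slightly above 0 for TBI minus sham.

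The core subunits of complex I, which carry out the chemistry, gave both signs. Counts for parts of a complex, here and in the paragraphs below, are to be read beside those of other genes. Of the 594 others at 12 or above, 68.0% were higher for TBI minus sham and 35.7% for hand acupuncture minus TBI. For hand acupuncture minus sham 58.1% were. Of all genes these shares were 51.0%, 49.3% and 51.0%. For TBI minus sham 3 of 6 core subunits above the floor were higher (median 0.029), beside 26 of 29 accessory subunits (median 0.064), and 22 of 29 accessory subunits under quantile normalization. Ndufv1, the flavin-binding subunit that accepts electrons from NADH, had log2 signals of 11.45, 11.33 and 11.33, and differed by −0.12 for TBI minus sham. Its partner Ndufv2, an iron-sulphur subunit of the same NADH module, was at 12.39, 12.54 and 12.47, a TBI minus sham difference of 0.15. The sham array was thus the highest of the 3 for Ndufv1 and the lowest for Ndufv2. Ndufs1, the third core subunit of that module, differed by 0.067.

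In the quinone module of complex I, Ndufs8, an iron-sulphur subunit, had the highest TBI minus sham difference of the complex. Its log2 signals were 10.91, 11.17 and 11.16, so that TBI was 0.25 above sham (1.19-fold) and hand acupuncture differed from TBI by −0.002. The sham array alone stood low for this gene. Ndufs3 and Ndufs7, of the same module, differed by −0.022 and −0.008 for TBI minus sham, and the 3 values of Ndufs7 spanned 11.75 to 11.76.

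Among accessory subunits of complex I, those named Ndufb, which sit in the membrane arm, were higher on the TBI array in 10 of 11 cases, with a median difference of 0.086 (9 of 11 with 0.036 under quantile normalization). They were lower on the hand acupuncture than on the TBI array in 9 of 11 cases (median −0.052; 7 of 11 not higher with −0.023 under quantile normalization), and 5 of 11 were higher for hand acupuncture minus sham (median −0.002). Ndufb1 was highest for TBI minus sham, with log2 signals of 11.86, 12.05 and 12.12, and Ndufb8 lowest, with 10.28, 10.21 and 10.21. Ndufb1 was thus lowest on the sham array and Ndufb8 highest there. Of the 12 subunits named Ndufa, 10 were higher for TBI minus sham (median 0.043). Ndufa7 was the lowest of complex I, at 11.54, 11.36 and 11.40, a difference of −0.17, and its second probe set above the floor differed by −0.045. Ndufa4 was at 13.12, 13.16 and 13.15, and moving it to complex IV changed no median by more than 0.05.

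Ndufs4, an accessory subunit of the NADH module whose loss in mice gives a model of Leigh syndrome, a mitochondrial disease of the brainstem and basal ganglia, was the member with the largest difference for hand acupuncture. Its log2 signals were 9.32, 9.46 and 9.82. The hand acupuncture array stood above the other two, by 0.36 over TBI (1.28-fold) and 0.50 over sham (1.41-fold), and under quantile normalization the latter was 0.52. Ndufs4 has 1 probe set here. Ndufv3, of the same module, had the lowest hand acupuncture minus TBI difference of complex I, −0.16, with signals of 10.49, 10.56 and 10.40.

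Complex II, which also serves the citric acid cycle, showed small differences. Sdha, the flavin subunit that oxidises succinate, was at 12.19, 12.20 and 12.21. Sdhb, the iron-sulphur subunit, was at 12.10, 12.18 and 12.12, with the highest TBI minus sham difference of the complex, 0.083. The membrane anchors Sdhc and Sdhd were at 12.36, 12.39 and 12.34, and at 12.15, 12.14 and 12.12. All 12 differences of the complex lay between −0.056 and 0.083. Sdhd had a second probe set above the floor, which went the opposite way for TBI minus sham, at 0.046 against −0.013.

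In complex III the 4 small subunits were all higher on the TBI than on the sham array, also under quantile normalization, with medians of 0.075 and 0.036. Uqcr10 led, with log2 signals of 12.95, 13.12 and 13.10, a TBI minus sham difference of 0.17 and a hand acupuncture minus sham difference of 0.15; the sham array stood low. Uqcrq, Uqcr11 and Uqcrh, the hinge protein at the cytochrome c side, differed by 0.086, 0.064 and 0.063 for TBI minus sham. The larger core protein Uqcrc1 was at 12.42, 12.41 and 12.39, lowest of the complex in TBI minus sham at −0.012. Uqcrfs1, the Rieske iron-sulphur protein that hands electrons to cytochrome c1, was at 12.63, 12.62 and 12.68 and had the highest hand acupuncture minus TBI difference, 0.063. Uqcrc2 differed by 0.066 for TBI minus sham, and its second probe set by −0.085.

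In complex IV the subunit Cox5a had the largest TBI minus sham difference of all members. Its log2 signals were 9.61, 10.15 and 10.03, so that the sham array stood below both others, by 0.54 (1.45-fold) and 0.42 (1.34-fold). These come from 1 probe set. A probe set that the table assigns to both Cox5a and LOC100361008, and which was therefore not used for either gene, read 13.09, 13.20 and 13.16, a TBI minus sham difference of 0.11. Both probe sets were lowest on the sham array, and the difference of the shared one was in the range of the rest of complex IV.

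The other general subunits of complex IV had TBI minus sham differences from 0.015 to 0.18. Cox4i1, the general form of subunit 4, was at 13.21, 13.38 and 13.18, so the TBI array stood above both others, by 0.17 over sham, and the hand acupuncture minus TBI difference was −0.20. Cox7c and Cox7a2l had TBI minus sham differences of 0.18 and 0.15, and those of hand acupuncture against sham were 0.14 and 0.099. Cox6b1 was at 12.90, 13.004 and 13.09, and had the highest hand acupuncture minus TBI difference of the complex, 0.090. Cox6a1, Cox8a and Cox7b differed by 0.094, 0.099 and 0.079 for TBI minus sham, and under quantile normalization by 0.012, 0.011 and −0.001. Cox6c, with the lowest TBI minus sham difference of the complex at 0.015, and Cox5b, at 0.036, turned to −0.080 and −0.010 under quantile normalization. Cox5b was the lowest of the complex for hand acupuncture minus sham, at −0.039.

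Several subunits of complex IV have isoforms made mainly in heart and skeletal muscle, testis or lung, and most were below the floor in these pools. Of 6 such genes only Cox7a1, the heart and muscle form of subunit 7a, was above the floor, with 7.55, 7.89 and 7.67. It was highest on the TBI array, by 0.34 over sham (1.27-fold), and had the lowest hand acupuncture minus TBI difference of complex IV, −0.22. Cox6a2 and Cox8b, the muscle forms of subunits 6a and 8, had means of 6.16 and 6.15. Cox4i2, the form of lung and hypoxic cells, read 6.07, 4.77 and 4.45, and Cox6b2, a testis form, 5.29, 6.52 and 6.42; Cox7b2 had a mean of 5.51. All of these lie below the floor, and no fold is given for them. Of 5 striated muscle markers with a probe set, Acta1 and Myh1 were above the floor, with TBI minus sham differences of −0.24 and −0.19. Myh1 had a mean of 13.1, while Ckm, Tnnt3 and Tnni2 were below the floor, with means of 5.3, 5.1 and 6.0. The list is therefore not read as a measure of striated muscle. Any part of muscle in the Cox7a1 difference was not tested.

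**Figure D4:**
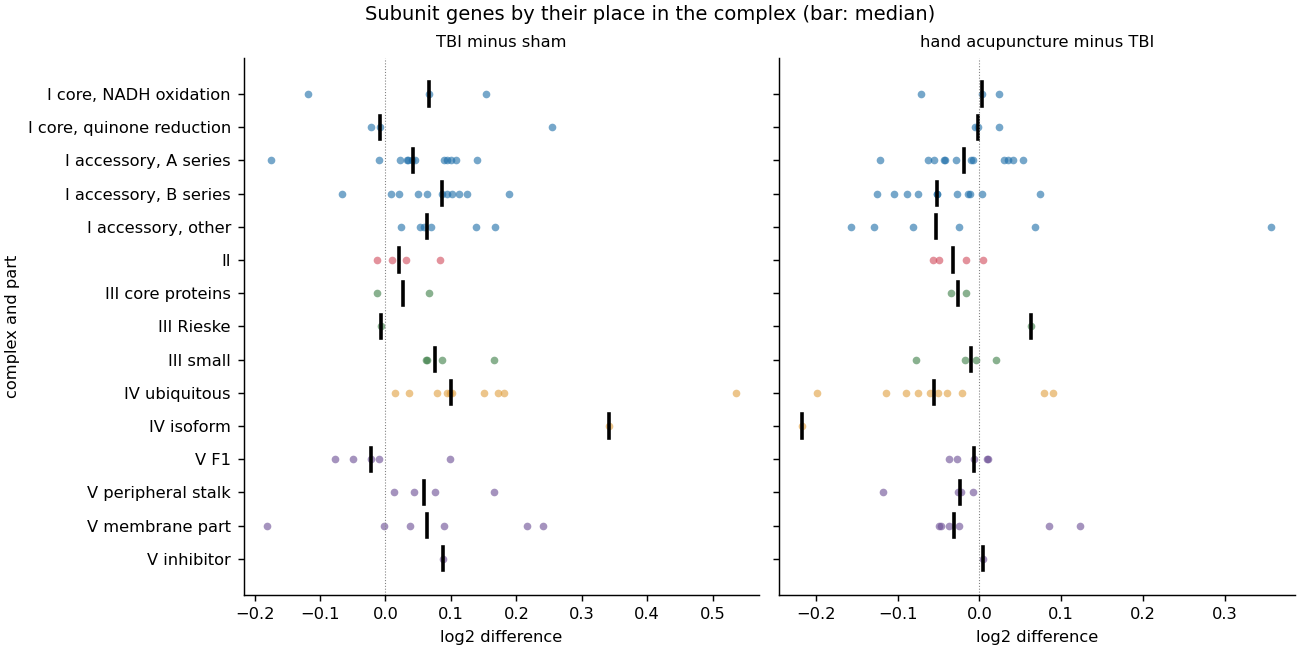
Log2 difference of each subunit gene above the floor (points) grouped by its part of the complex, for TBI minus sham (left) and hand acupuncture minus TBI (right); black bars are medians. The F1 subunits of complex V lie at or below 0 on the left except for 1, while the 4 peripheral stalk genes (2 of 4 under quantile normalization) and the 4 small subunits of complex III lie above 0.

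In complex V most subunits of the catalytic head were slightly lower on the TBI array. Of the 5 subunits of the F1 head and its central stalk, 4 were lower on the TBI than on the sham array (median −0.022, and −0.091 under quantile normalization, again with 4 of 5 not higher). Atp5f1b, the beta subunit with the catalytic sites, was at 13.37, 13.36 and 13.37, and Atp5f1a, the alpha subunit, at 12.78, 12.73 and 12.74. The gamma and delta subunits Atp5f1c and Atp5f1d differed by −0.023 and −0.078 for TBI minus sham, and Atp5f1d was the lowest of the complex for hand acupuncture minus sham, at −0.11. Atp5f1e, the epsilon subunit, was the exception, at 0.098.

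The 4 genes of the peripheral stalk, which holds the head still, were all higher on the TBI array (median 0.059), but only 2 of 4 under quantile normalization (median 0.010). Atp5pb, subunit b, had log2 signals of 13.08, 13.24 and 13.13, so the TBI array stood above both others, and its hand acupuncture minus TBI difference of −0.12 was the lowest of the complex. Atp5pf, Atp5po and Atp5pd differed by 0.075, 0.043 and 0.012 for TBI minus sham. In the membrane part 4 of 6 were higher (median 0.063), and 3 of 6 under quantile normalization (median −0.015). Atp5mpl, a small membrane proteolipid, was the highest of complex V in all 3 comparisons, at 11.43, 11.67 and 11.79: the sham array was lowest, by 0.24 against TBI and by 0.36 (1.29-fold) against hand acupuncture. Atp5mg, subunit g, was at 12.81, 13.02 and 12.997, and also lowest on the sham array. Atp5me, subunit e, went the other way, at 11.83, 11.65 and 11.73, with the lowest TBI minus sham difference of all members, −0.18. Atp5mc3, 1 of 3 genes for the c subunit of the rotor ring, was at 13.42, 13.45 and 13.42; the probe sets of the other two are assigned to a second gene as well and were not used. The inhibitor gene Atp5if1 was at 12.11, 12.20 and 12.20.

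Second probe sets gave little agreement on differences of this size. Of the 80 members 8 had several probe sets, and 3 of the 9 further probe sets were above the floor, those of Ndufa7, Sdhd and Uqcrc2. Of these, 1 of 3 had the sign of the probe set used for TBI minus sham, 0 of 3 for hand acupuncture minus TBI and 2 of 3 for hand acupuncture minus sham. Another 7 probe sets carried a member's symbol together with a second symbol and stayed out; 4 of these 7 were higher for TBI minus sham (median 0.036, from −0.23 to 0.11). The lowest of the 7 is assigned to both Ndufa10 and Ndufa10l1.

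Other genes of the pathway, from lists of assembly factors, carriers, citric acid cycle enzymes and regulators, were lower more often than higher for TBI minus sham, also under quantile normalization (31 of 76 higher). Of 76 such genes above the floor, 31 were higher (40.8%, where 51.0% of all genes were), with a median of −0.021. At least 1.2-fold higher were 4 (7.68% of all genes were) and 1.2-fold lower 4 (8.15% of all genes were), so neither share of the 76 was above that of all genes. For hand acupuncture minus TBI 48 of 76 were higher (63.2%, where 49.3% of all genes were; median 0.028), and for hand acupuncture minus sham 36 of 76 (47.4%, where 51.0% were; median −0.009). The counts of single lists that follow are to be read beside these shares of all genes. Their mean log2 signals had a median of 10.24, against 12.37 for the members, so the groups also differ in signal strength.

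The 40 assembly factors, proteins that build the complexes without staying in them, had 17 higher for TBI minus sham (median −0.017). Nubpl, which inserts iron-sulphur clusters into complex I, was the furthest apart, at 7.64, 8.37 and 8.59, and stood low on the sham array by 0.73 and 0.95. Atpaf2, an assembly factor of the F1 head, was at 9.15, 9.12 and 8.65 and stood low on the hand acupuncture array, by a difference of −0.47 from TBI. Cox18, which helps insert a mitochondrially encoded subunit of complex IV, was at 9.43, 9.34 and 9.72, and highest on that array. Cyc1, the cytochrome c1 subunit of complex III that the symbol rule leaves out, was at 12.28, 12.22 and 12.25.

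Citric acid cycle and pyruvate dehydrogenase genes had 6 of 14 higher for TBI minus sham (median −0.009). Cs, citrate synthase, was at 12.47, 12.46 and 12.45, while Ogdh differed by −0.25 and Sucla2 by 0.14. Of 10 carriers and channels 4 were higher (median −0.052), and Slc25a3, which brings phosphate into mitochondria for ATP synthesis, differed by −0.19. Of 11 regulators of mitochondrial gene expression 4 were higher for TBI minus sham (median −0.018) and 10 for hand acupuncture minus TBI (median 0.065). Ppargc1a, the coactivator PGC-1alpha, was at 10.10, 10.14 and 10.14. Tfam, which packs mitochondrial DNA and takes part in its transcription, was at 9.66, 9.53 and 9.76. Pprc1, a related coactivator, was at 8.18, 7.73 and 8.01, lowest on the TBI array. Nrf1, the respiratory factor, had a mean of 7.23, below the floor.

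The promoters of subunit genes are known for sites of nuclear respiratory factors, so the 250 bases before each gene's start in RefSeq's GRCr8 table were searched on both strands. A window was found for 72 of 80 members. CCGGAAG, the core bound by GABP and other ETS factors, was in 19 of 72 member windows (26.4%), against 7.27% of all 33469 windows. GCATGCG, the core of the sites of NRF1, was in 9 of 72 (12.5%), against 2.93%, and AAGATGG, the core of YY1 sites, in 4 of 72 (5.56%), against 4.62%. The member windows were also richer in G and C, with a median of 55.2% against 51.2%. The 33469 windows were not limited to genes above the floor, so the shares do not compare subunit genes with other genes expressed here. The motif letters were set after the data had been seen. A match is a run of letters, not a measured site, and these arrays do not measure binding.

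The windows below are shown for 4 members: Atp5me, which had the lowest TBI minus sham difference and holds all 3 motifs; Ndufa11, with NRF1 cores that overlap each other on both strands; Cox8a, with 2 ETS cores; and Ndufs8, the highest of complex I for TBI minus sham. Each runs 5′ to 3′ on the gene's strand and ends at the base before the gene's start, and capitals mark the motifs on either strand.
Atp5me (GRCr8, chr14:1464610-1464859, + strand): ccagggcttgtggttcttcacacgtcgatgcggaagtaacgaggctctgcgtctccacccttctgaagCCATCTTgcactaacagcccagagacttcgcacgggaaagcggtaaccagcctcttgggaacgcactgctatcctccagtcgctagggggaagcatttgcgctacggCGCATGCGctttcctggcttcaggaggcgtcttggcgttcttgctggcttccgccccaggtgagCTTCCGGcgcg
Ndufa11 (GRCr8, chr9:1637364-1637613, + strand): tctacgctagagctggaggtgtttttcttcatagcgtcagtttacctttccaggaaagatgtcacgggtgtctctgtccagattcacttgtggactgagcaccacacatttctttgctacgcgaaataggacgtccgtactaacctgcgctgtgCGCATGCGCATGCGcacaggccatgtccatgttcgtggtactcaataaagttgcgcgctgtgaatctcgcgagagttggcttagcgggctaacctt
Cox8a (GRCr8, chr1:213833624-213833873, - strand): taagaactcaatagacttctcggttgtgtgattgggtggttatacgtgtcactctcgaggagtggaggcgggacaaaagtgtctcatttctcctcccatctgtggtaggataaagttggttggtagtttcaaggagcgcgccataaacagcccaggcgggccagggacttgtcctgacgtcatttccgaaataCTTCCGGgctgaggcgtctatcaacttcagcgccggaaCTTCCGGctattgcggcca
Ndufs8 (GRCr8, chr1:210573699-210573948, - strand): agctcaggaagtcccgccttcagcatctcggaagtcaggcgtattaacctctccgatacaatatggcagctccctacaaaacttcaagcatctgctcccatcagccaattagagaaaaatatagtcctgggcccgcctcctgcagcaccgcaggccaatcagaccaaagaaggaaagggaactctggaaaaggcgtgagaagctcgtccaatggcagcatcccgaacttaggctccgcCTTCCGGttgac
In Atp5me the YY1, NRF1 and ETS letters begin 182, 75 and 11 bases before the gene's start. In Ndufa11 the first NRF1 core begins at 96, in Cox8a the ETS cores begin at 57 and 19, and in Ndufs8 the ETS core begins at 12. Ndufa11 was at 11.32, 11.46 and 11.42 in log2 signal, and Cox8a at 13.44, 13.54 and 13.45. Over the members above the floor, the 19 with an ETS core had a median TBI minus sham difference of 0.066, with 15 higher, and the 48 without it 0.074, with 37 higher. For hand acupuncture minus TBI these medians were −0.016 and −0.033. These are descriptions, and the promoters of the 2 groups were not tested against each other.

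Markers of cell types also differed between the same arrays. For TBI minus sham 6 of 8 neuron markers (median 0.051) and 5 of 6 oligodendrocyte markers (median 0.055) were higher. So were 4 of 7 astrocyte markers (median 0.011) and 4 of 5 microglia markers above the floor (median 0.091). Of all genes 51.0% were higher, of the 594 other genes at 12 or above 68.0% (median 0.046), and of 145 at 13 or above 83.4% (0.069). The neuron, oligodendrocyte and astrocyte lists had median signals of 13.05, 12.84 and 13.05. Their counts are therefore not read as differences of cell types. Summed over the list on the linear scale, neuron markers read 57700, 60100 and 59800, and oligodendrocyte markers 53600, 56500 and 55300. Cerebellum markers were lower in 7 of 7 cases, with a median of −0.62, and summed to 18400, 13500 and 12600. Slc1a6, 1 of these 7, was above the floor on the sham array only, at 8.18, 7.42 and 7.37. Lower too for TBI minus sham were the 4 endothelial markers (median −0.26) and the 3 pericyte and smooth muscle markers (median −0.24) that passed the floor. Below the floor, Tie1 of the endothelial list was lower, while Acta2 and Pdgfrb of the pericyte and smooth muscle list were higher. Both red cell markers were higher, by 0.33 for Hbb and 0.32 for Alas2, as were both brainstem markers above the floor, Hoxa5 and Chat. The brainstem median of 0.74 is the midpoint of 1.22 for Hoxa5, which was below the floor on the sham array, and 0.25 for Chat.

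For hand acupuncture minus TBI the markers differed as well. Of all genes 49.3% were higher, and of the 594 other genes at 12 or above 35.7%. Of the 8 neuron markers 3 were higher (median −0.007), of 6 oligodendrocyte markers 3 (0.005), of 7 astrocyte markers 2 (−0.067), of 5 microglia markers 2 (−0.27) and of 7 cerebellum markers 1 (−0.064). Of 4 endothelial markers 3 were higher (median 0.12), with Emcn at 0.51, and of 3 pericyte and smooth muscle markers 1 (−0.064). Both red cell markers were lower (median −0.33), with Hbb at −0.40. Of the genes listed for striated muscle, Acta1 and Myh1 were above the floor and higher (median 0.44), with Myh1 at 0.67. Ckm, Tnnt3 and Tnni2 were below the floor, so here too the list is not read as a measure of striated muscle. Of the 2 brainstem markers 1 was higher (median −0.10). Among microglia markers P2ry12 differed by −0.45 and C1qb by −0.38. The part of these markers in the subunit differences was not tested.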

How the data were processed

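The deposited values, 1 column a sample for 31099 probe sets, are log2 signals. Per the submitters' processing notes they come from MAS5 (version not given in the sources used here), which summarises matched and mismatched probes; the log base and scaling were read from the values, since the linear signals, with 2% trimmed at each end, average 500.0 on every array. Of 31042 non-control probe sets, 20826 have 1 symbol in the platform table of 2016, 436 several and 9780 none. All 80 members were found by identifier in RefSeq's GRCr8 table. Detection calls were not used; the floor on mean signal (7.44) stands in for them. Log2 differences of the arrays were taken as deposited, with no test and no p-value. Counts of members at 1.2-fold and 1.5-fold stand beside the same over all 9241 genes above the floor.

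Named were the highest and lowest member of each complex in each comparison, members 1.5-fold apart, isoform sets, catalytic subunits, and members with several probe sets; other members and genes were named after their values were seen. The members and lists were chosen with earlier results of these data known. Alternatives were 3 other scalings, 2 other floors, an offset of 50, other ways to pick probe sets, and Ndufa4 in complex IV. Motif letters and signal bands were set after the data had been seen; NRF1 and YY1 cores were first searched in a longer form. The tools were pandas 2.3.3, numpy 2.4.6 and matplotlib 3.10.9 under Python 3.11.15; the summaries were tested on simulated data. Cox8c and Cox7a2 have no probe set of their own among the members and were not analysed here.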

Additional observations from a re-analysis of the deposited data

How the results depend on the processing

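Of 243 values computed under 9 alternatives for 27 results, 228 stayed within 0.05 (medians) or 1.5 times (counts) of the value reported, 14 moved further, and 1 both moved further and changed sign. Within that tolerance signs changed too: of 162 alternative values of 18 medians, 8 had the opposite sign, for 6 medians, all of complexes II, III and V. No error between arrays exists, so 0.05 is a tolerance and not a measured spread. Quantile normalization, which forces the 3 arrays to 1 distribution, took the TBI minus sham medians to 0.0145 over all members, 0.0136 for complex III, 0.0296 for complex IV and −0.0198 for complex V, the last with its sign changed; the cause was not tested. It also changed the sign for complex II in TBI minus sham (−0.0044), complexes III and V in hand acupuncture minus TBI (0.0194 and 0.0112) and complex V in hand acupuncture minus sham (−0.0095). With no floor, which adds the 7 members of weak signal, members at least 1.2-fold lower numbered 3, 2 and 2 for TBI minus sham, hand acupuncture minus TBI and hand acupuncture minus sham, those at least 1.2-fold higher numbered 4 and 5 for the last 2, and those 1.5-fold apart 3, 1 and 2. The higher floor of 9.25 left 1 member 1.2-fold higher for TBI minus sham, since Cox7a1 dropped out. With the mean of all probe sets 1 member was 1.2-fold lower for TBI minus sham and 2 were 1.2-fold higher for hand acupuncture minus TBI. Centring on the median of probe sets or of bright genes, the offset of 50, the dimmest probe set and Ndufa4 in complex IV moved no result past these limits, although the median of complex II for hand acupuncture minus sham changed sign with the first of these, with the dimmest probe set and with averaged probe sets. Atp5s and Atp5sl, which an alternative was to leave out, are not among the members. No paired analysis was possible because each group has 1 array. No replicate could be left out for the same reason.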
